A study of Homo sapiens with 3 samples.

Results

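The RNA of 8 genes used to describe prostate luminal identity and androgen signalling was followed in NCI-H660 (H660), a human neuroendocrine prostate cancer cell line. The 8 genes were taken by symbol from a table of 58735 genes, and each symbol had exactly 1 row. They are KLK2, KLK3, TMPRSS2, ERG, HOXB13, FOXA1, FOLH1 and STEAP1. Parental H660 cells were treated for 24 h with DMSO, the solvent control, with 2.5 µM JG231 or with 5 µM JG231. JG231 is an allosteric inhibitor of the HSP70 chaperones. There was 1 library per condition, so no standard deviation, p-value or test is given, and every difference is between 1 library and another. All cells came from 1 established line, labelled prostatic adenocarcinoma in the sample records and described as neuroendocrine in the methods. The methods list hydrocortisone and beta-estradiol in the medium of all H660 cells.

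In luminal cells of the prostate, the androgen receptor is a hormone-bound transcription factor that binds DNA at androgen response elements. FOXA1, a pioneer factor, opens chromatin for it, and HOXB13 is a homeobox factor of the prostate that works with both. The best known targets are the secreted proteases KLK2 and KLK3, the latter known in the clinic as prostate-specific antigen (PSA), and the membrane protease TMPRSS2. Neuroendocrine prostate cancers often lose the receptor and these targets, and H660 is known as a line without the receptor. In many prostate cancers a rearrangement on chromosome 21 joins the start of TMPRSS2 to ERG, an ETS-family transcription factor, and H660 is known to carry this fusion. FOLH1 encodes prostate-specific membrane antigen (PSMA) and STEAP1 a cell-surface antigen of the STEAP metalloreductase family, and both proteins are used as targets in the prostate.

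The members differ in the sequence around their start. The promoters of KLK3 and KLK2 are shown because they are the classical androgen-regulated pair, and those of FOXA1 and STEAP1 because their windows differ most plainly from this pair among the members that passed 1 FPKM, beside ERG, whose windows are described in words. Each is the RefSeq window on GRCh38.p14 from 250 bases before to 50 bases after the start. Capitals mark the androgen response half-site AGAACA and the TATA motif TATAAA, each searched on both strands, where TTTATA is TATAAA read on the other strand.
KLK3, chr19:50854665-50854964, plus strand: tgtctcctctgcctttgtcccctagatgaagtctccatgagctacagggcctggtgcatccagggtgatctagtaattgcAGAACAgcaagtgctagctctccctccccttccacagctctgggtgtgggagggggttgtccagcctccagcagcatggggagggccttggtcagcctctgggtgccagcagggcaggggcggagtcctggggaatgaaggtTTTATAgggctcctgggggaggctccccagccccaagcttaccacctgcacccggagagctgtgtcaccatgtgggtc
KLK2, chr19:50873189-50873488, plus strand: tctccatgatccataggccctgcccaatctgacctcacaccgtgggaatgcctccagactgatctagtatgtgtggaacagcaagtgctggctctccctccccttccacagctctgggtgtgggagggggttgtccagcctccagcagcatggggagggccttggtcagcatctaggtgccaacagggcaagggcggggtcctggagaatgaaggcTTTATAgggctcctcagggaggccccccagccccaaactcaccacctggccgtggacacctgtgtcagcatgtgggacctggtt
FOXA1, chr14:37595200-37595499, minus strand: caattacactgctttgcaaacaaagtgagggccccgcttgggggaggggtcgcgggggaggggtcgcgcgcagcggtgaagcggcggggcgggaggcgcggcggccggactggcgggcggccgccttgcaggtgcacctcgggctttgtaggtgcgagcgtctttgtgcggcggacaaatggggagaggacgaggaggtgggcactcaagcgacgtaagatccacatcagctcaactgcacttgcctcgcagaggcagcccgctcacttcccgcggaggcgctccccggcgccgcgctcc
STEAP1, chr7:90154219-90154518, plus strand: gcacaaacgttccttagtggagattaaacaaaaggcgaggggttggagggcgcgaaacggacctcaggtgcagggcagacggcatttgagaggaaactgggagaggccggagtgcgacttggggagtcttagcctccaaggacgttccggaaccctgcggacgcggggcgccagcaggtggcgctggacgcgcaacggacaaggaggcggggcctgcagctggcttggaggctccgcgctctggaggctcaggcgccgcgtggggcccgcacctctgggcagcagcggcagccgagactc
The KLK3 and KLK2 windows were alike, with 225 of 294 bases identical (76.53%) in an ungapped alignment. Both held the TATA motif, 28 bases before the start in KLK3 and 34 bases before it in KLK2. This motif was found in 11.53% of 35116 promoter windows. AGAACA was present in KLK3 alone among the 5 members with a window (KLK2, KLK3, ERG, FOXA1 and STEAP1, and not TMPRSS2, HOXB13 or FOLH1), 170 bases before the start, and in 14.79% of all windows. The KLK3 stretch of 15 bases from there is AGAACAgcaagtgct. The aligned KLK2 stretch is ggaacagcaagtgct, which carries the substitution A1G, counted from 1 at the 5′ end with the KLK3 base first. The forkhead motif (TGTTTAC or TATTTAC, in 5.97% of windows), CAATAAA, bound by HOXB13 (4.0%), and the E-box CACGTG (7.26%) were in no window of these 5 genes.
The windows of FOXA1 and STEAP1 had no TATA motif and many CpG dinucleotides, 34 and 27, against 2 in KLK3 and 3 in KLK2. The median over all windows was 14, with quartiles of 4 and 28. ERG has 4 RefSeq windows, of which the one nearest to its most distant start (chr21:38660618-38660917, minus strand) had 53 CpG and the others 4 each. GC boxes (GGGCGG, in 44.95% of windows) were present in ERG, FOXA1, KLK2 and KLK3. A match describes the letters only.

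The values are FPKM, fragments scaled to exon length and to library depth, as deposited. Levels of different genes are therefore compared per length. FPKM values moved in steps of 1 fragment, and these steps gave 16.1 M fragments for DMSO, 20.4 M at 2.5 µM and 24.1 M at 5 µM. Although the JG231 libraries were deeper, fewer genes were listed above 0 in them, 21862 with DMSO, 19352 at 2.5 µM and 17293 at 5 µM. The libraries also differed in their low fragment numbers. Among genes with 1 transcript, 2079 had 2 to 9 fragments in the DMSO library, 1225 at 2.5 µM and 301 at 5 µM. Above 1 fragment, the commonest number was 5 with DMSO (339 genes), 4 at 2.5 µM (180 genes) and 15 at 5 µM (85 genes). In the 5 µM library the genes with few fragments were thus scarce, and a gene listed at 0 there cannot be bounded by the value of a few fragments. Fragments may be copies of 1 molecule, and their part in these numbers was not tested. Intervals that treat each fragment as independent are therefore given together with wider, approximate ones that take 5, 4 and 15 fragments as 1 unit in the 3 libraries. Both cover counting error only, at 95%, and the wider ones were added after the fragment numbers were seen.

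**Figure D1:**
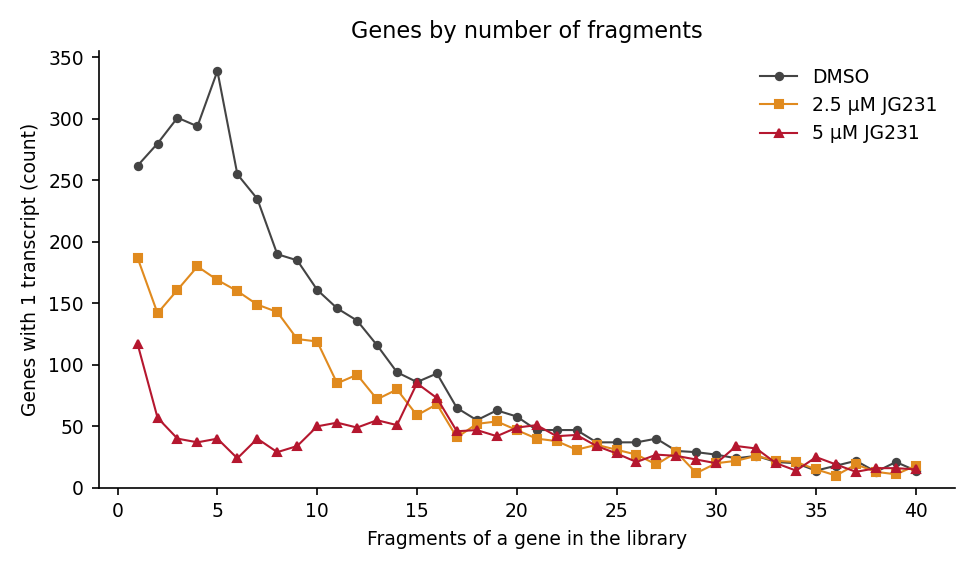
Number of genes with 1 transcript (vertical axis) that had each number of fragments from 1 to 40 (horizontal axis) in the DMSO, 2.5 µM and 5 µM JG231 libraries. The DMSO line is highest at 5 fragments (339 genes), whereas the 5 µM line is low from 2 to 9 fragments and reaches 85 genes at 15.

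Across the 8 genes, FOXA1 was abundant in all 3 libraries, ERG was intermediate, and the others were low or listed at 0. FOXA1 stood at 67.5 to 97.7 FPKM and ERG at 2.11 to 6.37 FPKM. The summed level of the remaining 6 genes was only 1.88 FPKM with DMSO, 1.91 at 2.5 µM and 2.11 at 5 µM. Among these 8, FOXA1 alone was thus abundant, while the classical androgen-regulated secretory genes were close to 0 in this line under DMSO already.

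**Figure D2:**
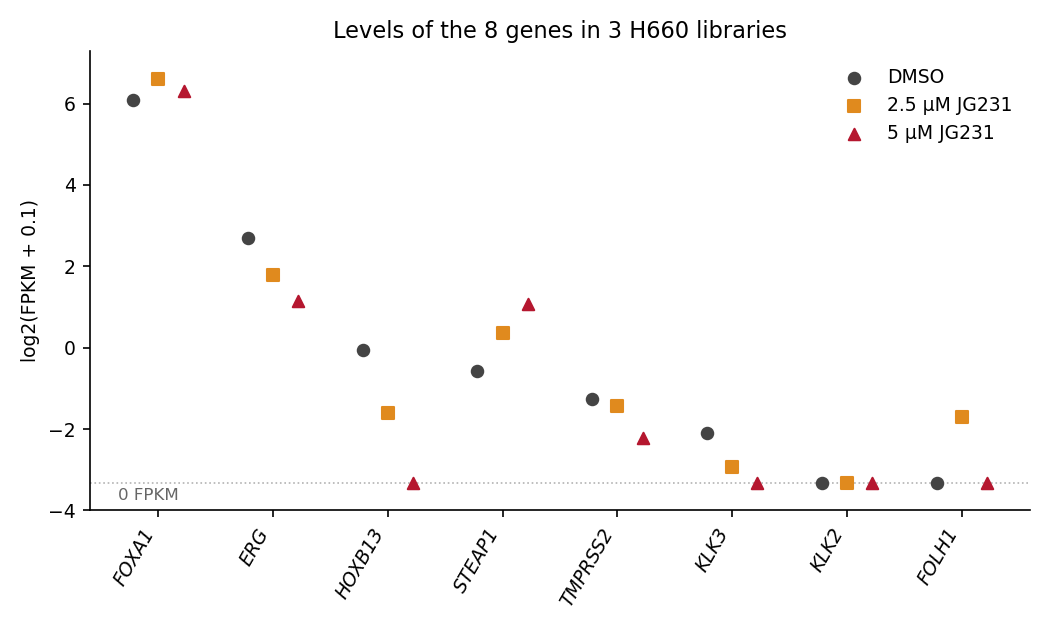
Level of each of the 8 genes on the log2(FPKM + 0.1) scale (vertical axis) in the 3 libraries, 1 point per library, with genes ordered by their DMSO level. FOXA1 is far above the rest at 67.5, 97.7 and 78.9 FPKM, ERG descends from 6.37 to 2.11 FPKM, and points on the dotted line are listed at 0.

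KLK2 (ENSG00000167751, chr19:50861568-50880567, plus strand), which encodes kallikrein 2, was listed at 0 in all 3 libraries. KLK3 (ENSG00000142515, chr19:50854915-50860764, plus strand) was at 0.134 FPKM with DMSO, 0.0317 at 2.5 µM and 0 at 5 µM, which correspond to 10, 3 and 0 fragments. KLK3 was thus detectable at a trace with DMSO and no longer listed at 5 µM. These neighbours share much of their sequence, so fragments could be divided between them. The ratio of KLK3 depth-scaled fragments at 2.5 µM to DMSO was -2.08 on the log2 scale, with an interval of -4.58 to -0.12 per fragment and of -9.44 to 2.43 per unit. Among 579 protein-coding genes within 1.5-fold of the DMSO level of KLK3, 58.0% were listed at 0 at 5 µM and 44.6% at 2.5 µM. Values of 0 were therefore common for genes this low.

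TMPRSS2 (ENSG00000184012, chr21:41464300-41531116, minus strand), a transmembrane serine protease, was at 0.315 FPKM with DMSO, 0.273 at 2.5 µM and 0.116 at 5 µM. The underlying numbers were 31, 34 and 17 fragments. The first pair of values was close and the 5 µM value lowest. On the log2(FPKM + 0.1) scale, which understates changes of low genes, the differences from DMSO were -0.15 and -0.95. At 2.5 µM the interval of the ratio was -0.95 to 0.54 per fragment and -1.88 to 1.56 per unit, and both included 0. At 5 µM it was -2.39 to -0.55 per fragment, which excludes 0, and -6.44 to 1.46 per unit, which includes it. Of 902 genes with a similar DMSO level, 43.8% were listed at 0 at 5 µM. TMPRSS2 overlaps the interferon-induced gene MX1 on the other strand by 5772 bp, and the sources used here do not say if strand entered the counting.

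ERG (ENSG00000157554, chr21:38380027-38661780, minus strand) was at 6.37 FPKM with DMSO, 3.34 at 2.5 µM and 2.11 at 5 µM, from 777, 516 and 386 fragments. It was highest with DMSO and lowest at the higher dose. On the log2(FPKM + 0.1) scale its difference from DMSO was -0.91 at 2.5 µM and -1.55 at 5 µM, and that of the 5 µM from the 2.5 µM library was -0.63. In depth-scaled fragments, ERG was 1.91-fold lower at 2.5 µM and 3.01-fold lower at 5 µM. The log2 ratios had intervals of -1.09 to -0.77 and -1.77 to -1.41 per fragment, and of -1.28 to -0.59 and -2.25 to -0.98 per unit, none of which reached 0. The 500 genes nearest in mean level differed between the JG231 libraries with a scaled median absolute deviation of 0.51. Of 3271 protein-coding genes within 1.5-fold of its DMSO level, 12.9% were as low as ERG or lower on the same log2 scale at 2.5 µM and 5.87% at 5 µM.

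ERG exceeded TMPRSS2 per length by 20.2-fold with DMSO, 12.2-fold at 2.5 µM and 18.3-fold at 5 µM. Values per gene cannot show whether ERG fragments come from a fused or an unfused transcript. The genes lie 2802.52 kb apart on chromosome 21, with 15 protein-coding genes between them. Of these, 2 were listed at 0 in all libraries, the ETS factor ETS2 among them, and 6 exceeded 1 FPKM in at least 1 library. The latter included PSMG1, a proteasome assembly chaperone (5.29, 6.09 and 6.59 FPKM in order of dose), and HMGN1, a nucleosome-binding protein (21.2, 23.3 and 22.6 FPKM). PCP4, a calmodulin-binding protein, was at 101, 33.7 and 40.8 FPKM. HMGN1 thus differed by less than 0.25 on the log2 scale between DMSO and either JG231 library, whereas PCP4 was lower in both and PSMG1 passed that difference upwards at 5 µM.

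HOXB13 (ENSG00000159184, chr17:48724763-48728750, minus strand) was at 0.861 FPKM with DMSO, 0.227 at 2.5 µM and 0 at 5 µM, from 48, 16 and 0 fragments. The order of the libraries was that of ERG, at a much lower level. At 2.5 µM the log2 ratio of depth-scaled fragments was -1.93, with an interval of -2.84 to -1.08 per fragment and of -4.06 to -0.11 per unit. No fold is given for 5 µM, where the gene is listed at 0. Of 1255 genes with a similar DMSO level, 37.2% were lower by more than 1 on the log2(FPKM + 0.1) scale at 2.5 µM and 40.8% at 5 µM, so lower values were common at this level. Among them, 16.3% were listed at 0 at 5 µM. PRAC1 and PRAC2, the neighbours of HOXB13 that are known for prostate and colon expression, were listed at 0 in every library.

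FOXA1 (ENSG00000129514, chr14:37589552-37596059, minus strand) was at 67.5 FPKM with DMSO, 97.7 at 2.5 µM and 78.9 at 5 µM, from 4325, 7922 and 7556 fragments. Both JG231 libraries were above DMSO, with the lower dose highest. It ranked 418th among protein-coding genes with DMSO, 358th at 2.5 µM and 532nd at 5 µM, so that its rank and its level at 5 µM moved in opposite directions. The log2(FPKM + 0.1) difference from DMSO was 0.53 at 2.5 µM and 0.22 at 5 µM, and between the doses it was -0.31. The 500 genes nearest in level had a scaled median absolute deviation of 0.21 between the JG231 libraries. Per unit, the intervals of the ratio were 0.42 to 0.65 and 0.06 to 0.38. The direction at 5 µM depended on the scaling. With mitochondrial and small RNA genes left out of the library sum, which took 40.5% of the FPKM with DMSO, 24.6% at 2.5 µM and 29.2% at 5 µM, FOXA1 was at 0.24 at 2.5 µM and at -0.16 at 5 µM, while this scaling moved the median of all genes to -0.28 and -0.38. TTC6, which overlaps FOXA1 by 431 bp, was at 2.45, 0.616 and 0.134 FPKM, far below FOXA1 and lower with each dose.

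FOLH1 (ENSG00000086205, chr11:49145092-49208638, minus strand) was listed at 0 with DMSO and at 5 µM and at 0.205 FPKM at 2.5 µM. This value rests on about 22 fragments, a number that several exon lengths allowed to be whole. It was seen in a single library with no replicate, and its near-identical copy FOLH1B was listed at 0 in all 3. The related peptidase genes NAALAD2, NAALADL1 and NAALADL2 did not exceed 0.306 FPKM in any library.

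STEAP1 (ENSG00000164647, chr7:90154456-90164829, plus strand) was at 0.574 FPKM with DMSO, 1.18 at 2.5 µM and 1.99 at 5 µM, from 15, 39 and 78 fragments. It was the member with the opposite order to ERG, lowest with DMSO and highest at 5 µM. The log2(FPKM + 0.1) difference from DMSO was 0.92 at 2.5 µM and 1.64 at 5 µM. Per fragment the intervals of the ratio were 0.15 to 2.003 and 0.99 to 2.70. Per unit they were -0.93 to 3.54 and -0.53 to 4.47, and both then included 0. Of 1052 genes with a similar DMSO level, 10.8% were higher by more than 1 at 5 µM. STEAP1 has a short mature transcript (1625 bases of exon), and 599 genes of similar exon length had median differences of 0.47 at 2.5 µM and 0.55 at 5 µM. The corresponding medians were -0.06 and -0.15 for ERG (2748 genes) and 0.12 and 0.13 for FOXA1 (2826 genes).

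**Figure D3:**
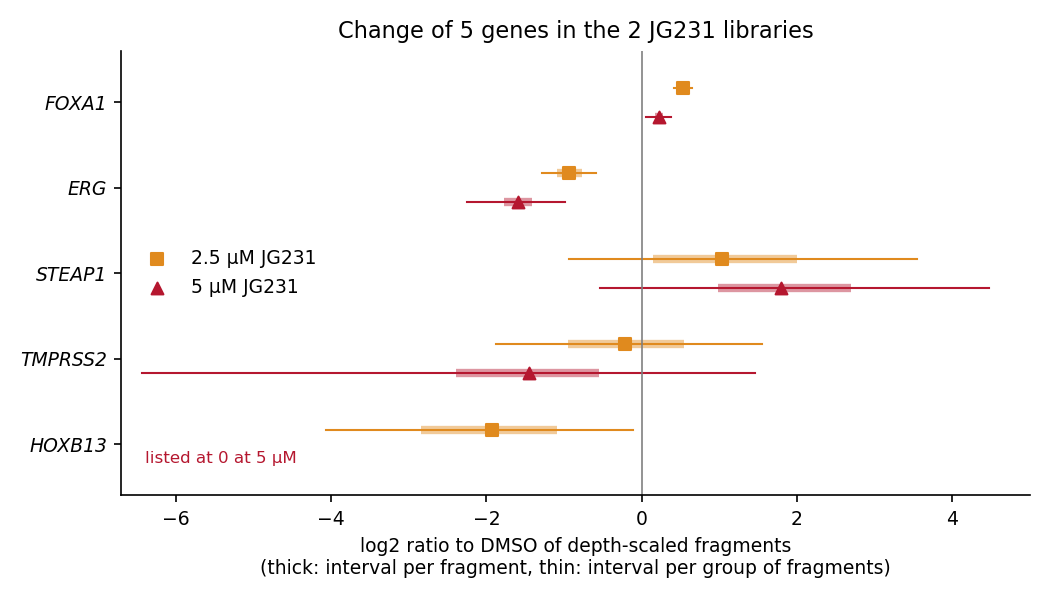
Log2 ratio to DMSO of depth-scaled fragments (horizontal axis) for 5 genes at 2.5 µM and 5 µM JG231, with thick bars for the 95% interval per fragment and thin bars for the wider interval per unit of 5, 4 or 15 fragments. ERG lies below 0 and FOXA1 above 0 with both intervals, whereas the thin bars of STEAP1 and TMPRSS2 cross 0, and HOXB13 is listed at 0 at 5 µM.

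The methods of the study describe a filter for its principal component analysis, with an FPKM over 1 and a log2(FPKM + 0.1) difference from DMSO over 0.25 in size, which also retained genes at 0 in 1 library. Here a gene is called higher or lower by these values of level and difference. With 1 library per condition, this is a rule of size and not a test. ERG, FOXA1 and STEAP1, 3 of the 8 genes, exceeded 1 FPKM in a library of each comparison. STEAP1 did so only with JG231, since it was at 0.574 FPKM with DMSO. Against DMSO it could therefore only be called higher, and its calls there add nothing to its values. At 2.5 µM, FOXA1 and STEAP1 were called higher, against 36.4% of 15746 genes that passed the filter, and ERG was called lower, against 43.4%. At 5 µM, STEAP1 was called higher, against 36.5% of 15765 genes, and ERG lower, against 45.1%, while FOXA1 was not called. With genes at 0 in 1 library retained as well, a rule added later, FOLH1 joined those called higher at 2.5 µM, against 34.7% of 20180 genes higher and 49.0% lower. At 5 µM, KLK3 and HOXB13 then joined ERG as lower, against 31.1% of 20455 genes higher and 54.2% lower. With so many genes called, a call by itself sets no member apart. Beyond a difference of 1, no member was called at 2.5 µM, where 12.9% of genes were higher and 21.7% lower. At 5 µM, STEAP1 was beyond 1 upwards, as were 14.7% of genes, and ERG downwards, as were 24.3%. Between the doses, STEAP1 was called higher at 5 µM, with 26.8% of 14197 genes, and ERG and FOXA1 lower, with 30.1%. The comparisons with DMSO share that library, so agreement between the doses is not independent.

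The genes whose 3 values were nearest in pattern to a member were found among the 11200 protein-coding genes that averaged 1 FPKM or more, by Euclidean distance of their centred log2 values over the 3 libraries. For ERG these were ARNTL2, a circadian clock factor, PRR14L and IGF1R, the receptor of insulin-like growth factor 1, at distances of 0.0119, 0.0172 and 0.0185. IGF1R was at 3.29, 1.71 and 1.08 FPKM. For FOXA1 they were DCAF10, SLC11A2, an iron transporter, and RMND1 (0.0101, 0.013 and 0.0137), and for STEAP1 CCDC86, BLVRB, which is biliverdin reductase B, and GTPBP6 (0.0403, 0.0467 and 0.0515). They were picked as the nearest of 11200 genes over only 3 points each, so a small distance says little.

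Other androgen-responsive genes were mixed. Of 40 such genes, 6 were listed at 0 in all libraries, KLK2 among them, and 25 passed the level filter at each dose. At 2.5 µM, 10 were called higher and 8 lower, with a median of -0.01, and at 5 µM 9 were higher and 10 lower, with a median of 0.05. Beside these counts, 36.4% of all genes that passed were higher and 43.4% lower at 2.5 µM, and 36.5% and 45.1% at 5 µM. The medians over all 13785 genes that averaged 1 FPKM or more were 0.00 and -0.01, close to those of the list. Its genes of the highest mean level included TPD52 (55.9, 70.1 and 63.7 FPKM) and NDRG1 (60.6, 65.4 and 53.8 FPKM). The cation channel gene TRPM8 was lower at 2.36, 0.261 and 0.521 FPKM, whereas RAB4A, a GTPase of early endosomes, was higher at 9.41, 22.3 and 23.9 FPKM. A line known to lack the receptor thus expressed many genes of the list without its secreted proteases.

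**Figure D4:**
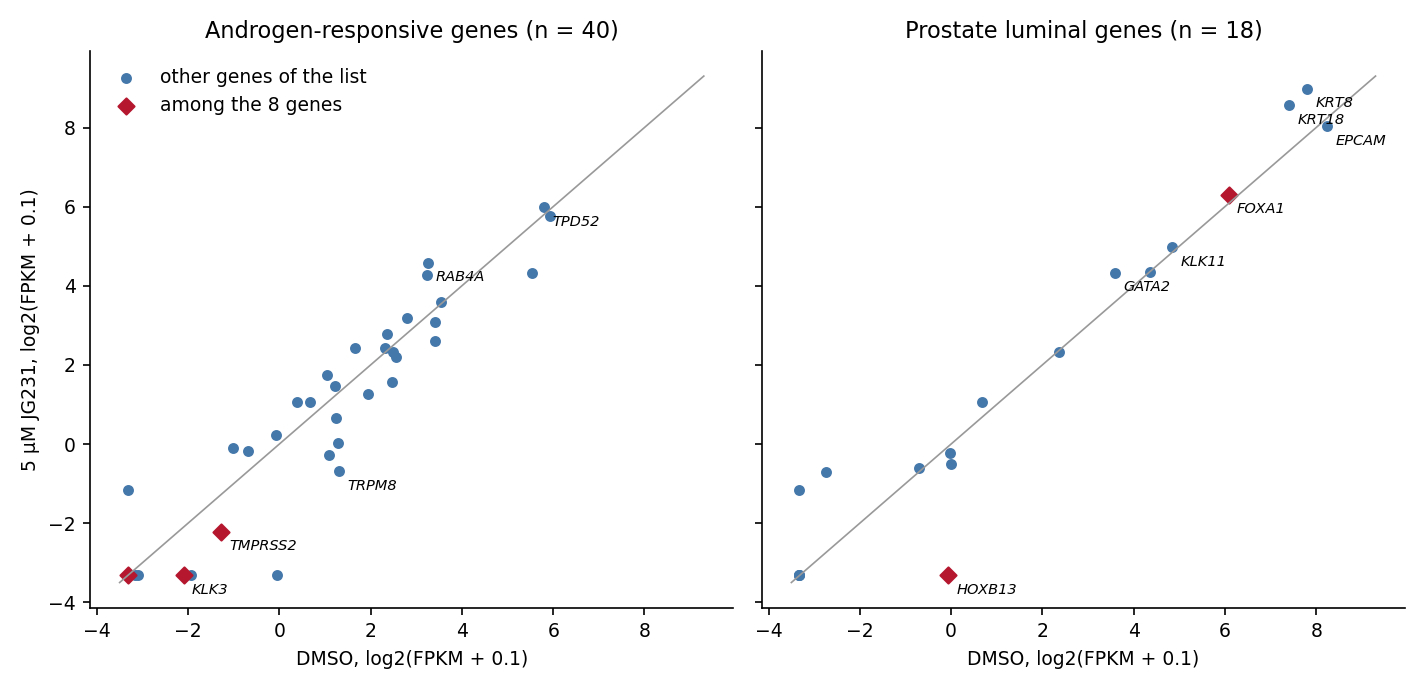
Level with 5 µM JG231 (vertical axis) against DMSO (horizontal axis), both as log2(FPKM + 0.1), for 40 androgen-responsive genes and 18 prostate luminal genes, with members of the 8 genes as diamonds and a line of equality. KRT8 and KRT18 lie above the line and TRPM8 and HOXB13 below it.

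Luminal keratins were abundant and higher with JG231. KRT8 was at 224 FPKM with DMSO, 414 at 2.5 µM and 505 at 5 µM, and its partner KRT18 at 170, 299 and 380 FPKM. The epithelial adhesion gene EPCAM was at 302, 262 and 261 FPKM, and GATA2, a pioneer factor that acts with FOXA1 in luminal cells, at 12.0, 24.5 and 20.1 FPKM. Of 18 luminal genes, 9 passed the filter, of which 5 were called higher and 2 lower at 2.5 µM and 4 and 0 at 5 µM. Of all genes that passed, 36.4% were called higher and 43.4% lower at 2.5 µM, and 36.5% and 45.1% at 5 µM. The medians were 0.29 and 0.22. AZGP1 and PSCA, a secretory and a surface marker of luminal cells, were listed at 0 in all libraries. ACP3, the secreted prostatic acid phosphatase, was at 1.497, 0.726 and 1.97 FPKM, and MSMB, a secreted protein of the prostate, at 0.884, 0 and 0.760. These 4 markers were thus low or listed at 0 beside abundant keratin RNA, while the secreted kallikrein KLK11, also on the list, was at 28.7, 24.1 and 31.2 FPKM.

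Neuroendocrine genes, which mark the other identity of the line, ranged from abundant to listed at 0, and most of those that passed the filter were lower with JG231. Of 19 genes, 17 passed the filter, and 3 were called higher and 11 lower at 2.5 µM and 1 and 14 at 5 µM, with medians of -0.43 and -0.73. Of all genes that passed, 36.4% were called higher and 43.4% lower at 2.5 µM, against 36.5% and 45.1% at 5 µM. SCGN (1.05 FPKM), ELAVL3 (1.27 FPKM) and ONECUT2 (1.83 FPKM) were low with DMSO, and NEUROD1 and SRRM4 were listed at 0 there. CHGA, which encodes chromogranin A, was at 46.0, 15.05 and 12.7 FPKM. NKX2-1 stood at 186, 198 and 159 FPKM and SCG3 at 64.5, 35.4 and 33.4 FPKM. DDC, the decarboxylase of monoamine synthesis, was at 15.3, 3.88 and 4.93 FPKM. SCG2, the 1 gene of the list called higher at 5 µM, was at 15.3, 29.5 and 30.6 FPKM. Both JG231 libraries thus had less RNA of ERG and of most neuroendocrine markers that passed the filter. The luminal genes were mixed there, with KRT8 and KRT18 higher and EPCAM not. Whether these differences are linked was not tested.
Of 10 basal markers, 6 passed the filter, and 1 was called higher and 4 lower at each dose, with medians of -0.69 and -1.23. Over all genes that passed, 36.4% were higher and 43.4% lower at 2.5 µM, and 36.5% and 45.1% at 5 µM. LAMB3 was at 9.57, 4.89 and 2.84 FPKM, KRT15 at 4.72, 4.19 and 4.43 and DST at 1.45, 1.06 and 0.829, while KRT5 and KRT14 were listed at 0. Of 16 stromal, immune and endothelial markers, 6 were listed at 0 in all libraries, PTPRC, CD3E and PECAM1 among them. Their summed level was 6.46 FPKM with DMSO, 1.997 at 2.5 µM and 2.12 at 5 µM. With DMSO most of it was the endothelial cadherin CDH5, at 4.92, 0.476 and 0.581 FPKM, whereas the largest in both JG231 libraries was the collagen gene COL1A1, at 0.823, 0.745 and 1.27 FPKM. VWF stood at 0.215, 0.265 and 0.

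Relatives of the members in the same gene clusters were expressed unevenly. Among 15 kallikrein genes, 8 were listed at 0 in all libraries and only KLK11 (28.7, 24.1 and 31.2 FPKM) and KLK12 (11.5, 7.74 and 10.9 FPKM) exceeded 1 FPKM in any, with KLK14 at 0.627, 0 and 0.734. The cluster thus had RNA of KLK11 and KLK12 where KLK2 was listed at 0 and KLK3 was nearly so. The pseudogene KLKP1, chosen after its values were seen, was at 0, 1.46 and 3.91 FPKM. In the HOXB cluster, 8 of 10 genes passed the filter, and 5 were called higher at both doses and 3 and 2 lower, beside 36.4% and 36.5% of all genes called higher and 43.4% and 45.1% called lower. HOXB2 was at 31.6, 53.5 and 55.05 FPKM, HOXB5 at 4.203, 8.73 and 7.66, HOXB7 at 28.6, 49.8 and 52.6 and HOXB9 at 17.9, 28.1 and 28.4. HOXB3 (14.7, 10.9 and 8.31 FPKM) and HOXB8 (9.67, 5.94 and 4.09 FPKM) were lower at each higher dose, the order that HOXB13, at the far end of the cluster, also had. Of the HOX13 paralogs, HOXA13 was at 5.51, 2.83 and 3.34 FPKM and HOXD13 at 0.611, 0.219 and 0.464, and HOXC13 was listed at 0.

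**Figure D5:**
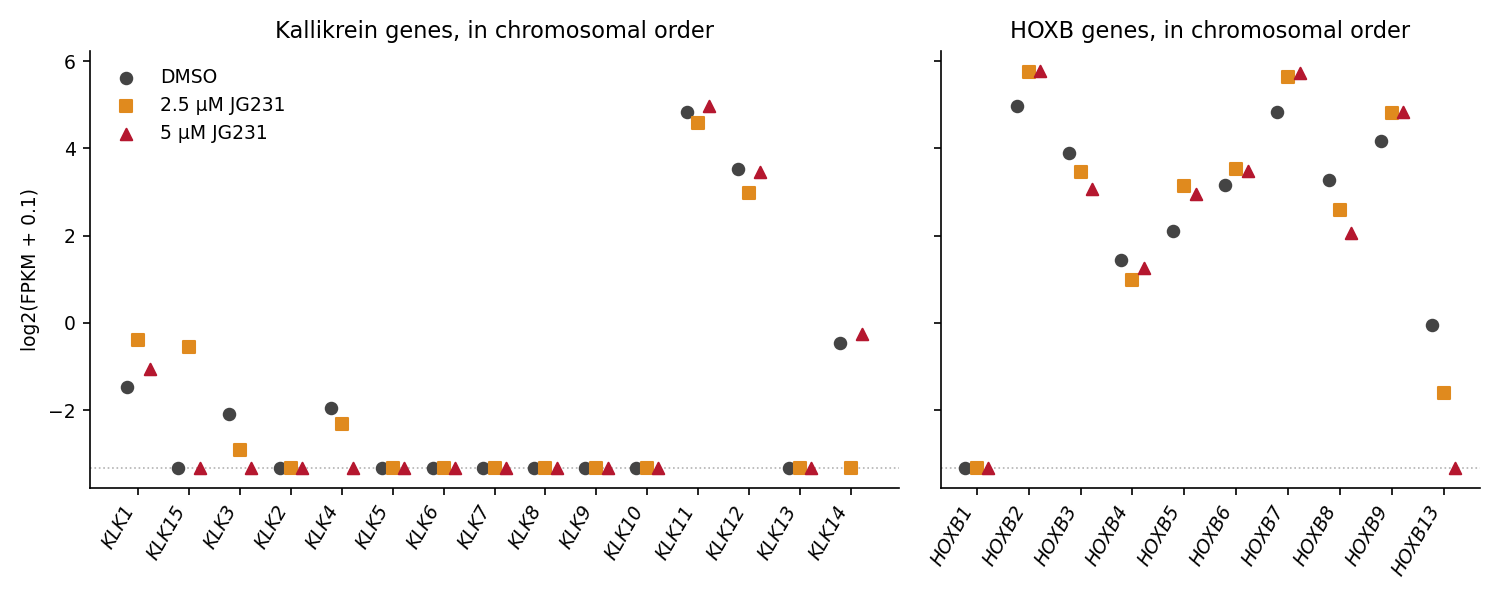
Level on the log2(FPKM + 0.1) scale (vertical axis) of 15 kallikrein and 10 HOXB genes in chromosomal order (horizontal axis), 1 point per library, with the dotted line at 0 FPKM. KLK11 and KLK12 stand out above the kallikreins, and HOXB13 lies below HOXB2 to HOXB9 in every library.

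Among the families of the other members, ERG was the only member of its ETS subfamily, with FLI1 and FEV, that stayed above 1 FPKM in every library. FLI1 was listed at 0, and FEV was at 1.06, 0.0479 and 0.791 FPKM. Of 27 ETS genes, 17 passed the filter, and 9 were called higher and 5 lower at each dose, with medians of 0.25 and 0.29, where 36.4% of all genes that passed were higher and 43.4% lower at 2.5 µM, and 36.5% and 45.1% at 5 µM. The epithelial factors ELF3 (83.7, 200 and 189 FPKM) and EHF (6.15, 24.3 and 19.6 FPKM) were higher with JG231, as were ETV7 (4.29, 8.73 and 9.40 FPKM) and the repressor ERF (12.2, 20.9 and 26.2 FPKM). ELK1 stood at 16.2, 15.9 and 18.2 FPKM. ERG was among the 5 called lower. FOXA2 was at 0.979, 2.13 and 1.12 FPKM and FOXA3 at 2.13, 3.65 and 3.92, both far below FOXA1.
STEAP2, which lies 2761 bp downstream of STEAP1, was at 0.392, 0.428 and 0.830 FPKM from 55, 76 and 174 fragments. STEAP3, a ferrireductase of the endosome, was at 20.4, 5.25 and 6.43 FPKM, lower with JG231 where STEAP1 was higher. STEAP4 did not exceed 0.0166 FPKM and STEAP1B, a close copy of STEAP1, was listed at 0. Of 17 transmembrane serine protease genes, 3 passed the filter, and all 3 were called lower at both doses, as were 43.4% and 45.1% of all genes that passed, so 3 genes say little of the family. These were TMPRSS13 (15.2, 6.18 and 5.36 FPKM), TMPRSS6 (11.6, 7.42 and 6.93 FPKM) and TMPRSS4 (7.20, 3.92 and 2.46 FPKM). TMPRSS2, the androgen-regulated member, was below all of these in each library.

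Cofactors and chaperones of steroid receptors were well expressed. The list of 19 genes also held the steroid receptors NR3C1, NR3C2 and PGR and the pioneer factors GATA2 and GATA3. PGR and GATA3 were listed at 0 in all libraries. Of the 19 genes, 17 passed the filter at 2.5 µM and 16 at 5 µM. At 2.5 µM, 4 were called higher (BAG1, GATA2, NR3C1 and NR3C2) and 5 lower, and at 5 µM 5 and 9. The shares over all genes were 36.4% higher and 43.4% lower at 2.5 µM and 36.5% and 45.1% at 5 µM. The medians were -0.05 and -0.34. The chaperones HSP90AB1 and HSP90AA1 were at 618, 389 and 490 FPKM and at 296, 190 and 223 FPKM. The demethylase KDM1A was at 26.2, 24.9 and 23.1 FPKM. BAG1, a cochaperone of HSP70, was higher at 4.81, 12.4 and 11.6 FPKM. Partners of the receptor were therefore present in cells with hardly any RNA of KLK2 and KLK3.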

How the data were processed

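RNA-seq of 3 H660 libraries was analysed. According to the methods, the authors used HISAT for alignment and StringTie for gene levels, within what is also called a Top Hat-Cufflinks workflow. The submitters' processing notes name HISAT2, featureCounts and GRCh38, without versions of the tools. The authors deposited the values as FPKM, which are normalised for exon length and library size. Whether counting used the strand is not given in the sources used here, and the RNA input differs between methods and labels.

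Identifiers of 58207 genes were found in GENCODE release 44 (GRCh38), which gave coordinates. Differences were computed as log2 of FPKM with the methods' pseudocount of 0.1. Fragments were recovered from FPKM steps in genes with 1 transcript, where 86.3% of 4740, 83.4% of 3256 and 81.7% of 2034 values under 50 fragments were whole within 0.01 (DMSO, 2.5 µM, 5 µM). For other genes, the exon length (60% to 140% of that of GENCODE) that made all 3 values whole was taken. No count model was used, since there was 1 library per condition. Intervals are Clopper-Pearson intervals. Groups came from the sample labels. The 8 genes and 14 gene lists were chosen with earlier results of these data known. From each list up to 3 genes of the highest mean and up to 3 of the largest change in the same direction at both doses are named. Further family members are named as paralogs. FEV, PSMG1, HMGN1, PCP4, NR3C1, NR3C2, TSC22D3, FKBP5, SLC45A3 and PGR were named after their values were seen. The same holds for ACP3, MSMB, SCG2, SCGN, ELAVL3, ONECUT2, GATA3 and markers listed at 0. The gene of the receptor itself, and a few others that this choice would name, are not reported here. Alternatives covered pseudocounts, level filters, the threshold, scaling, centring and summed rows. The scripts were tested on simulated data (scipy 1.17.1, numpy 2.4.6 and pandas 2.3.3 under Python 3.11.15).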

Additional observations from a re-analysis of the deposited data

How the results depend on the processing

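No library could be left out and no paired analysis was possible because each condition had 1 library. Pseudocounts and summed rows cannot turn a sign here. Of 39 differences of members not listed at 0 in both libraries, under 2 rescalings and centring on the median gene, 38 kept their direction. The exception was FOXA1 at 5 µM, at -0.16 when mitochondrial and small RNA genes were left out of the library sum.

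The numbers of members called moved with the filter and the scaling. Without the level filter, 3 members instead of 1 were called lower at 2.5 µM, 4 instead of 1 lower at 5 µM and 3 instead of 2 higher at 2.5 µM. With genes at 0 in 1 of the compared libraries retained, a choice made after seeing the data, 3 instead of 1 were called lower at 5 µM and 3 instead of 2 higher at 2.5 µM. With a mean FPKM of at least 5, 0 were called lower at either dose, 1 instead of 2 higher at 2.5 µM, and 0 instead of 1 higher at 5 µM. With a threshold of 1, 0 were called in either direction at 2.5 µM. Without mitochondrial and small RNA genes in the sum, 2 instead of 1 were called lower at each dose, and 1 instead of 2 higher at 2.5 µM. The higher call lost at 2.5 µM was that of FOXA1, at 0.24, below the threshold of 0.25. Low fragment numbers limit all statements on KLK2, KLK3, TMPRSS2, HOXB13 and FOLH1, which rest on at most 48 fragments in any library. They also limit the statements on STEAP1, which had 15 fragments in the DMSO library.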

Other observations

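The glucocorticoid receptor recognises DNA elements much like those of the androgen receptor, and the medium of these cells contained hydrocortisone. NR3C1, which encodes it, was at 4.72 FPKM with DMSO, 9.92 at 2.5 µM and 7.82 at 5 µM. TSC22D3, a target that both receptors are known to induce, was at 1.96, 4.62 and 3.25 FPKM, highest at the same dose as NR3C1. FKBP5, another shared target, was at 5.78, 5.26 and 4.52 FPKM and did not follow that order. SLC45A3, a prostate gene of the androgen-responsive list, was at 2.01, 0.968 and 0.718 FPKM, and PGR, which encodes the progesterone receptor, was listed at 0. No test was possible with 1 library per condition.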
